A study of Homo sapiens with 45 samples.

Results

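Estrogen receptor alpha, encoded by ESR1, acts on its target genes through coregulators. Coactivators and corepressors dock on the hormone-bound or free receptor and add or remove activating marks on chromatin, or link the receptor to RNA polymerase II. In luminal breast cancer cells these proteins are best known for setting how strongly estrogen drives transcription and for the shift from agonist to antagonist action of receptor ligands. The 9 genes described here are 7 coactivators (NCOA1, NCOA2, NCOA3, CARM1, EP300, CREBBP and MED1) and 2 corepressors (NCOR1 and NRIP1). They were taken by symbol from a table of 57353 symbols, all 9 were found, and all 9 passed the filter on low counts in every line.

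Messenger RNA was sequenced from 3 human breast cancer cell lines, in 15 groups of 3 libraries, 45 libraries in all. MM330 (MDA-MB-330) and MM134 (MDA-MB-134-VI) stem from lobular carcinoma. HCC1428 stems from ductal carcinoma, which is thus represented by 1 line. All cells were first kept for 3 days in charcoal-stripped serum, which lacks steroid hormones, were then transfected with a small interfering RNA (siRNA), and 24 h later received 100 pM estradiol (E2) or vehicle (0.01% ethanol) for 24 h. In each line the groups were siER_E2, siFOXA1_E2 and siMDC1_E2 (siRNA against the estrogen receptor, the pioneer factor FOXA1 or the DNA damage checkpoint mediator MDC1, each with E2), siNT_E2 (non-targeting siRNA with E2) and siNT (non-targeting siRNA with vehicle). No knockdown without E2 was among the samples used here. Whether each library had a culture of its own is not stated in the labels, and p-values therefore measure only the spread between these libraries, which may be technical.

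Library totals ran from 21043426 to 36738812 counts. Single members had between 509 and 71251 counts in a library, and the SD over the 3 libraries of a group was 2.78% of the mean in the median case and 13.9% at most. All 5 luminal markers (KRT8, KRT18, KRT19, EPCAM and GATA3) were present in every line at a summed 5721 to 17379 CPM, and none of 4 immune markers reached 1 CPM. Of 5 fibroblast markers only COL1A1 did, and the 5 summed to 74.5 to 133 CPM in libraries of MM134, 19.6 to 35.2 in MM330 and 42.7 to 79.8 in HCC1428, with COL3A1 at 0 in every line. Of 3 endothelial markers 1 did in MM330 and HCC1428, at a summed 10.3 CPM at most. Processed pseudogenes took a higher share of the counts in 11 libraries (0.337% to 0.494%) than in the remaining 34 (0.123% to 0.158%), and calls on E2 or a knockdown within a line that were lost without those 11 are named beside the values. Each siRNA lowered its own target against siNT_E2: ESR1 differed by -3.12, -3.68 and -1.004 on the log2 scale in siER_E2 of MM134, MM330 and HCC1428, FOXA1 by -1.97, -1.86 and -1.64 in siFOXA1_E2, and MDC1 by -2.13, -2.30 and -1.94 in siMDC1_E2. ESR1 kept 203, 201 and 215 CPM in siER_E2 of HCC1428, against 405, 419 and 416 CPM in siNT_E2.

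Levels are given first for cells without E2, as RPKM (reads per kilobase of exon, relative to the library total), the only scale here on which genes can be set against each other. In MM134, CARM1, an arginine methyltransferase that the p160 coactivators recruit, was highest at 27.7 ± 0.29 RPKM, followed by NCOA3, a p160 coactivator also known as AIB1, at 19.9 ± 0.162 RPKM (SD, n = 3 as for all levels). EP300 and MED1 had 17.9 ± 0.15 and 17.4 ± 0.412 RPKM, and NCOA2, CREBBP and NRIP1 had 13.4 ± 0.224, 13.4 ± 0.276 and 13.3 ± 0.235 RPKM. The libraries overlapped within each of these sets of neighbors. NCOR1 followed at 9.28 ± 0.0579 RPKM, and NCOA1, the first described p160 coactivator, was lowest at 3.33 ± 0.161 RPKM.

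In MM330, MED1, the Mediator subunit that nuclear receptors bind through its LXXLL motifs, had 265 ± 3.07 RPKM and stood far above every other member. CARM1, NCOA2, EP300 and NCOA3 followed at 16.8 ± 0.405, 14.98 ± 0.0426, 14.7 ± 0.19 and 14.5 ± 0.228 RPKM, with overlapping libraries between EP300 and NCOA3. NCOR1, NCOA1 and CREBBP had 12.7 ± 0.339, 10.3 ± 0.167 and 8.41 ± 0.198 RPKM, and NRIP1 was lowest at 5.64 ± 0.284 RPKM. In HCC1428, NCOA2, a p160 coactivator, was highest at 28.3 ± 1.39 RPKM and MED1 lowest at 9.12 ± 0.521 RPKM. Between them stood CARM1 at 17.5 ± 0.595, CREBBP at 16.3 ± 0.338, EP300 at 14.6 ± 0.486, NCOA1 at 13.6 ± 0.242, NCOA3 at 13.3 ± 0.615, NRIP1 at 12.2 ± 0.409 and NCOR1 at 11.2 ± 0.532 RPKM. Of these, the libraries of NCOA1 and NCOA3 overlapped, as did those of NCOA3 and NRIP1. Dividing by the longest transcript in place of all exons kept the highest and the lowest member of each line but changed the order between them, with EP300 (23.3 ± 0.195 RPKM) above NCOA3 (21.1 ± 0.172 RPKM) in MM134.

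**Figure D1:**
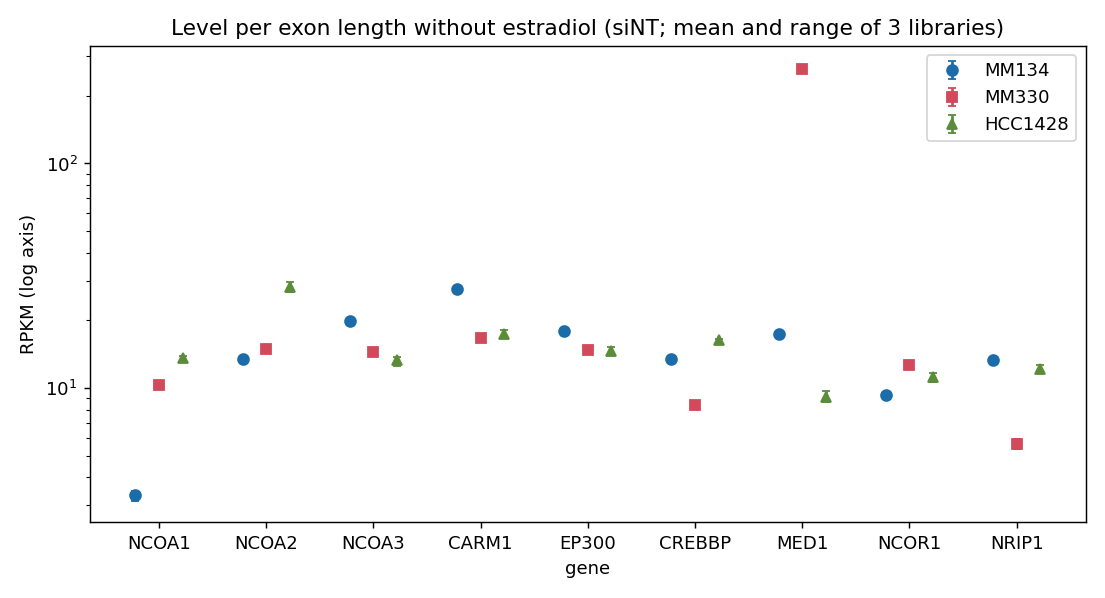
RPKM (log axis) of the 9 coregulator genes in siNT libraries of MM134, MM330 and HCC1428. Points are means and bars the range of 3 libraries. MED1 of MM330, at 265 RPKM, stands above all other points, and NCOA1 of MM134, at 3.33 RPKM, stands below them.

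Each member was also compared between lines without E2, in a fit of all 45 libraries (edgeR quasi-likelihood test, Benjamini-Hochberg adjustment over all genes, called at an adjusted p below 0.05). MM134 and HCC1428 differed at 9 of 9 members, where 75.6 percent of all genes were called, and MM134 and MM330 likewise at 9 of 9, where 72.4 percent were called. MM330 and HCC1428 differed at 6 of 9, where 73 percent were called. Most genes differed between these lines, and the member counts are to be read against that. Among the p160 genes, NCOA1 was lower in MM134 than in HCC1428 (log2 difference -2.03 ± 0.055 SE, adjusted p = 9.38e-31), and so was NCOA2 (-1.07 ± 0.040 SE, adjusted p = 7.37e-26), while NCOA3 was higher (0.59 ± 0.060 SE, adjusted p = 1.45e-11). NRIP1, also known as RIP140, was lower in MM330 than in HCC1428 (-1.11 ± 0.051 SE, adjusted p = 1.51e-22) and higher in MM134 than in MM330 (1.24 ± 0.051 SE, adjusted p = 2.54e-24). CREBBP was lower in MM330 than in HCC1428 (-0.95 ± 0.051 SE, adjusted p = 2.03e-20).

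MED1 gave the widest difference between lines of any member, 4.86 ± 0.046 SE, adjusted p = 3.89e-46, for MM330 over HCC1428. On totals scaled within each line, it had 1853, 1879 and 1842 CPM in MM330, 135, 138 and 142 CPM in MM134 and 60.8, 64.1 and 67.6 CPM in HCC1428, with no overlap between lines. With totals scaled over all 45 libraries, the scale of the fold change and of the ratios below, its means were 1940, 127.8 and 66.9 CPM in MM330, MM134 and HCC1428. MED1 lies on chromosome 17 (39404285 to 39451286, minus strand, GRCh38), and ERBB2, the receptor tyrosine kinase gene HER2, begins 236.6 kb further along. ERBB2 was also higher in MM330 than in HCC1428 (4.99 ± 0.048 SE, adjusted p = 4.25e-46). From CACNB1 to NR1D1, a stretch of 927 kb, all 17 genes with at least 1 CPM in each line were higher in MM330 than in the higher of the other 2 lines, by 3.10 to 31.8 times. The next 6 such genes, MSL1 to RARA, had ratios of 0.277 to 1.22. On the other side, LINC00672 and PLXDC1, which lie before CACNB1, were also higher in MM330 (ratios 49.1 and 33.0). Both were below 1 CPM in the other 2 lines and so were not counted. Where the higher levels begin on that side was not determined. MED24, another Mediator subunit gene, lies inside the stretch with a ratio of 5.96. The stretch was chosen after its values were seen, copy number was not measured, and its part in the MED1 level was not tested.

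**Figure D2:**
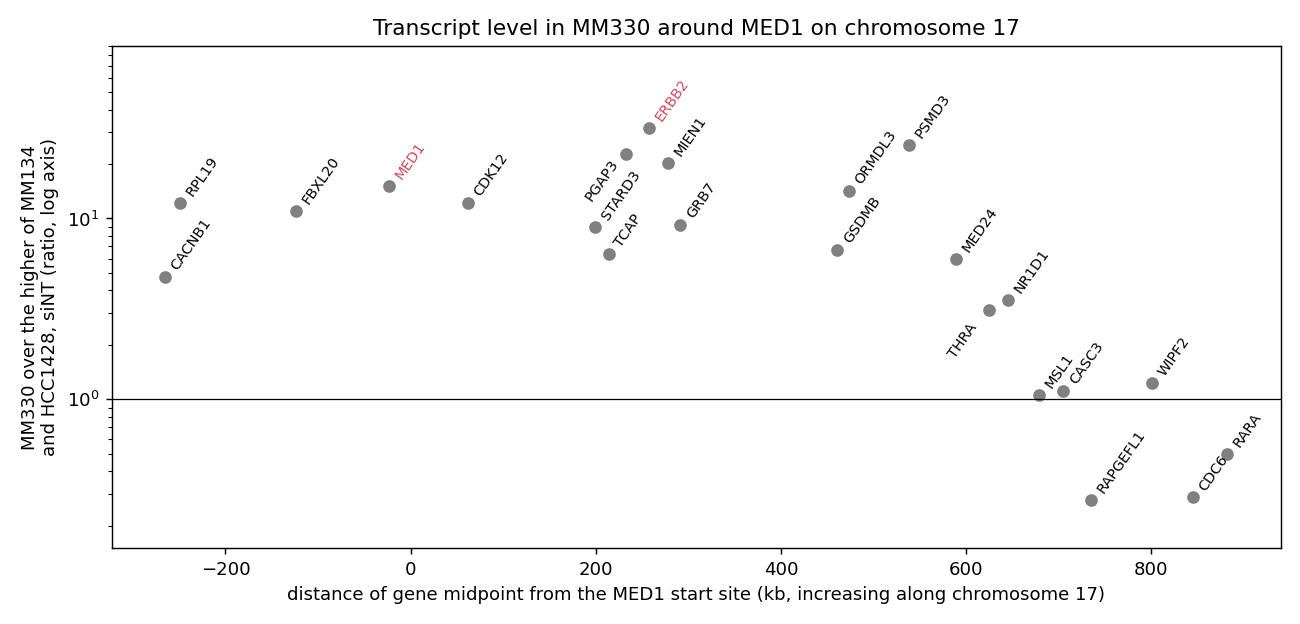
Ratio of siNT level in MM330 to that in the higher of MM134 and HCC1428 (log axis) for genes with at least 1 CPM in each line, against distance from the MED1 start site (kb). Ratios from CACNB1 to NR1D1 lie between 3.10 and 31.8, and those from MSL1 to RARA between 0.277 and 1.22.

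The promoters of 2 members are shown because the data single out these genes, NRIP1 for its response to E2 and MED1 for its level in MM330. RefSeq gives 3 such windows for NRIP1, and the one that holds GGTCA was picked. Each is the 300 bases from 250 before to 50 after a gene start in RefSeq (GRCh38.p14), on the minus strand, at chr21:15064951-15065250 for NRIP1 and chr17:39451214-39451513 for MED1. Capitals mark TGACC, which is GGTCA read on the other strand and is an arm of the estrogen response element.
NRIP1: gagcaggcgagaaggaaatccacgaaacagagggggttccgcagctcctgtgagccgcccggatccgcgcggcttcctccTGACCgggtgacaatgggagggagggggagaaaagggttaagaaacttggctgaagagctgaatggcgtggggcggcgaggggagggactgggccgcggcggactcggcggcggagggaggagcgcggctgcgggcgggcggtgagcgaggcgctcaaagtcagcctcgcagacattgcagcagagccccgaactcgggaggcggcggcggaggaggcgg
MED1: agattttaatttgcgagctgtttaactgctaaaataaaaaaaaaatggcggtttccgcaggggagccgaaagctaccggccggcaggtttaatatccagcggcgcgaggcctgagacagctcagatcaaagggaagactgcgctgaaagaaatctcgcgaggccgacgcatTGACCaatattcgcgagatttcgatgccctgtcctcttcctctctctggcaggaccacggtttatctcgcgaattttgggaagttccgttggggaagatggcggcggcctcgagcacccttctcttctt
TGACC begins 170 bases before the start in NRIP1 and 79 bases before it in MED1. RefSeq promoters were matched for 8 members, 15 promoters in all. GGTCA on either strand was in 2 of these 15, those shown, and in 37.4% of 35116 promoters of this length, and the full element (GGTCA, any 3 bases and TGACC), which neither sequence holds, was in 0.057%. These matches describe letters in a window only.

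The effect of E2 was read from siNT_E2 against siNT within each line. NRIP1 rose in all 3 lines, and NCOA2 and NCOA3 fell in all 3. In bulk libraries fewer cells that express a gene and less RNA per cell cannot be told apart. Among all 14933 genes tested in each line, 14.9% were called in the same direction in all 3, against 3 of 9 members. Shares of all genes, here and elsewhere, were not matched to the members in count. The members had at least 509 counts in every library. In MM134 8 members were called (3 higher, 5 lower), where 54.4 percent of all genes were called (27.2 percent higher, 27.2 percent lower). In MM330 there were 5 (1 higher, 4 lower) against a background of 26.3 percent (13.7 percent higher, 12.6 percent lower). In HCC1428 6 members (2 higher, 4 lower) stood against 54.8 percent (29.1 percent higher, 25.7 percent lower). The median member differed by -0.29, -0.083 and -0.051 on the log2 scale in MM134, MM330 and HCC1428, and the median gene tested by -0.031, -0.0044 and -0.026.

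Among the corepressors, NRIP1, which binds the E2-loaded receptor and recruits histone deacetylases, is itself a known estrogen target. It had 301, 290.3 and 285 CPM in siNT_E2 of MM134, against 126, 121 and 122 CPM in siNT (log2 fold change 1.25 ± 0.031 SE, adjusted p = 1.01e-18). In MM330 it had 124, 129 and 138 CPM in siNT_E2, against 47.7, 46.8 and 43.2 CPM in siNT (1.503 ± 0.050 SE, adjusted p = 1.01e-12). In HCC1428 it had 130.4, 122 and 139.6 CPM in siNT_E2, against 98.2, 97.1 and 102 CPM in siNT (0.40 ± 0.042 SE, adjusted p = 1.71e-07). All siNT_E2 libraries lay above all siNT libraries in every line. The response was larger in both lobular lines than in HCC1428, by 0.88 ± 0.068 SE, adjusted p = 5.46e-14, for MM134 and 1.103 ± 0.070 SE, adjusted p = 2.28e-16, for MM330. In those line differences 26.5 and 28.3 percent of all genes were called, and 7 members in each.

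NCOR1, which holds histone deacetylase complexes on unliganded and antagonist-bound receptors, fell with E2 in MM134, to 127 ± 2.39 CPM in siNT_E2, against 155 ± 1.81 CPM in siNT (-0.29 ± 0.039 SE, adjusted p = 1.55e-06). It also fell in MM330 (-0.17 ± 0.037 SE, adjusted p = 0.00273), a call that was lost when the libraries with more pseudogene counts were left out (adjusted p = 0.11). In HCC1428 it had 164 ± 6.60 CPM in siNT_E2 and 165 ± 7.34 CPM in siNT, with overlapping libraries (adjusted p = 0.762).

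**Figure D3:**
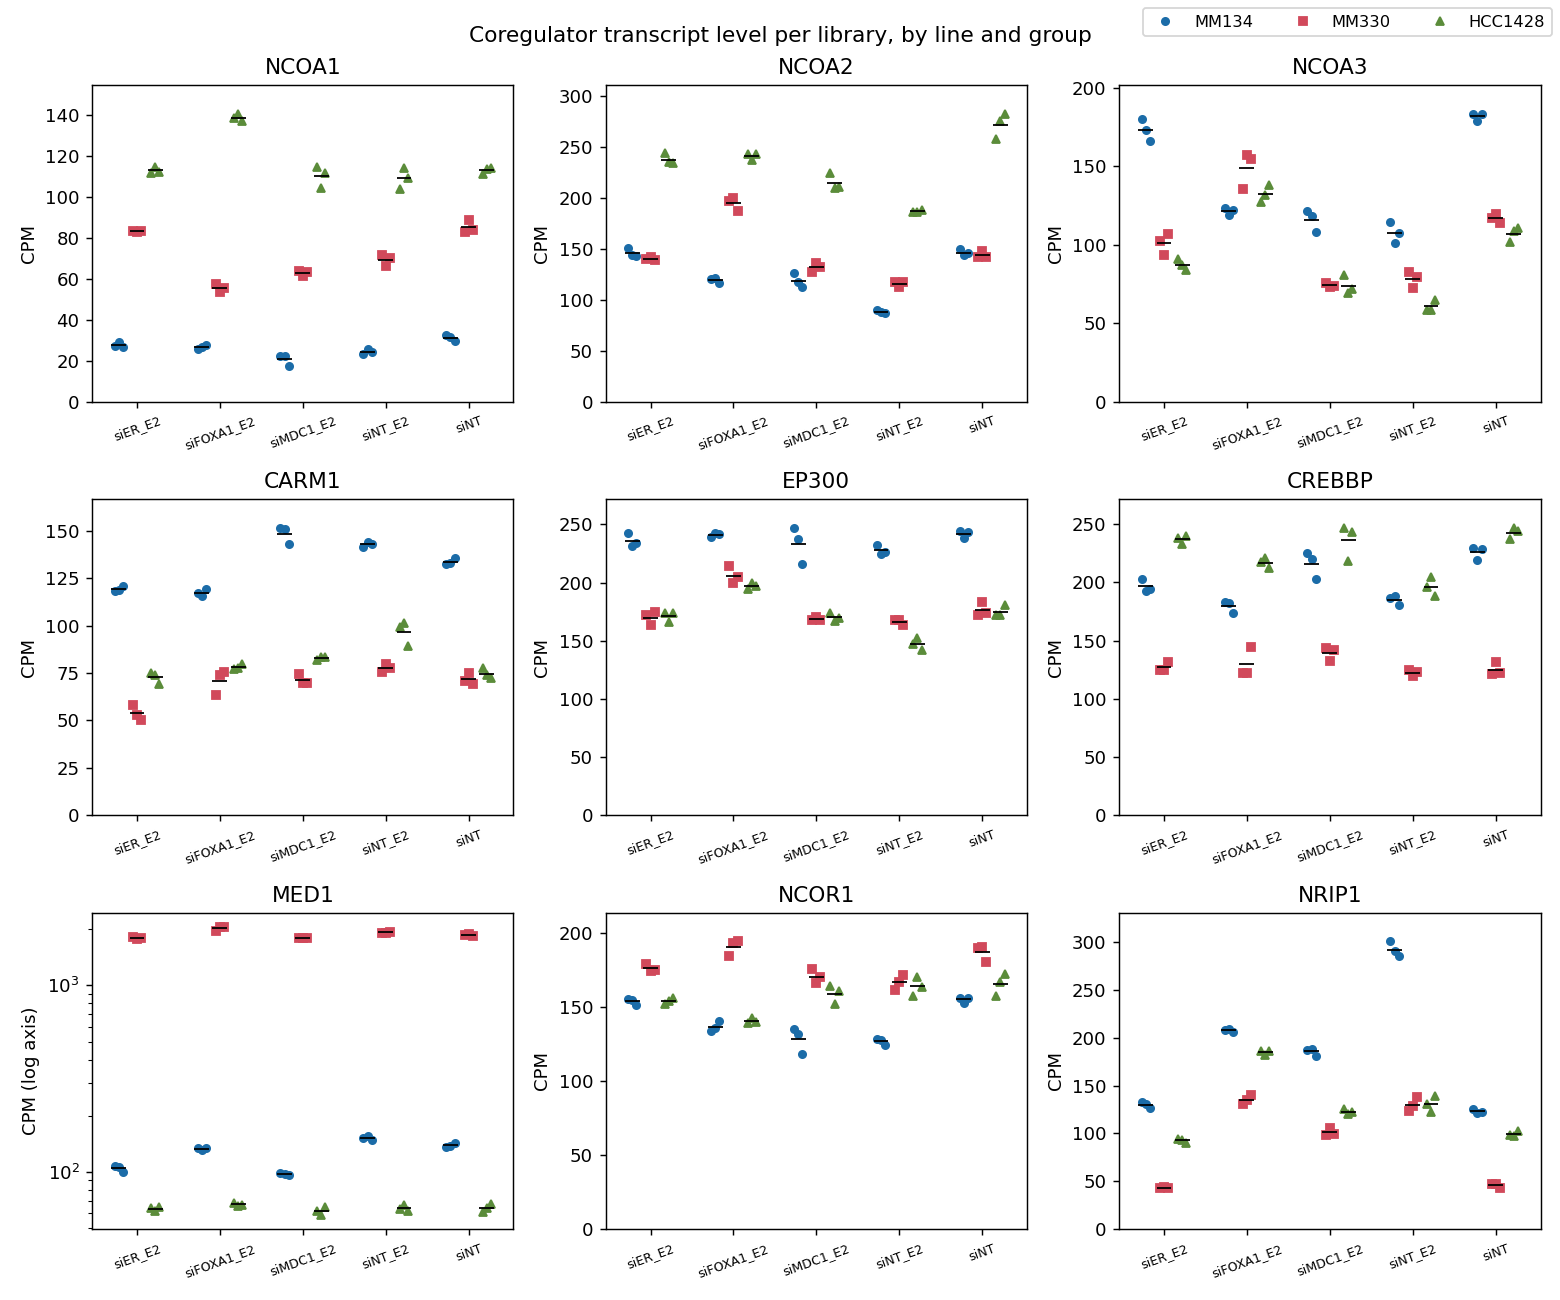
CPM per library of the 9 coregulator genes by group and line, scaled within a line, with a log axis for MED1. Points are libraries and black bars group means. NRIP1 has 301, 290.3 and 285 CPM in siNT_E2 of MM134, against 126, 121 and 122 CPM in siNT.

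Of the p160 coactivators, which bind the receptor through LXXLL motifs and bring in acetyltransferases and methyltransferases, NCOA3 had the lowest log2 fold change with E2 in each line, in MM134 within the SE of NCOA2. It had 115, 101 and 107 CPM in siNT_E2 of MM134, against 183, 179 and 183 CPM in siNT (-0.75 ± 0.044 SE, adjusted p = 2.29e-12). In MM330 it had 82.6, 72.4 and 79.2 CPM in siNT_E2, against 117, 119.5 and 114 CPM in siNT (-0.58 ± 0.062 SE, adjusted p = 2.07e-06). In HCC1428 it had 58.6, 58.5 and 64.7 CPM in siNT_E2, against 102, 109 and 110.4 CPM in siNT (-0.82 ± 0.057 SE, adjusted p = 4.04e-10). The groups did not overlap in any line.

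NCOA2 had 89.7, 87.9 and 86.6 CPM in siNT_E2 of MM134, against 149, 144 and 146 CPM in siNT (-0.73 ± 0.038 SE, adjusted p = 3.79e-13). MM330 had 117, 112 and 117 CPM in siNT_E2, against 142, 148 and 142 CPM in siNT (-0.32 ± 0.038 SE, adjusted p = 6.29e-06). HCC1428 had 186, 186 and 188 CPM in siNT_E2, against 258, 275 and 283 CPM in siNT (-0.54 ± 0.037 SE, adjusted p = 3.29e-10). Again no siNT_E2 library reached a siNT library. The fall was larger in MM134 than in MM330 (difference -0.39 ± 0.057 SE, adjusted p = 9.56e-07), in a comparison where 26.2 percent of genes and 3 members were called. NCOA1 fell in both lobular lines (-0.36 in MM134 and -0.30 in MM330) and was not called in HCC1428 (-0.05 ± 0.040 SE, adjusted p = 0.3). The difference between lines was called for MM134 (-0.28 ± 0.077 SE, adjusted p = 0.00433) and for MM330 (-0.25 ± 0.072 SE, adjusted p = 0.00713).

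Among the enzymes, CARM1 had 96.6 ± 6.63 CPM in siNT_E2 of HCC1428, against 74.6 ± 2.69 CPM in siNT (0.37 ± 0.047 SE, adjusted p = 1.55e-06), and rose slightly in MM134 (0.09 ± 0.030 SE, adjusted p = 0.011). In MM330 its change of 0.11 was not called (adjusted p = 0.239), although all siNT_E2 libraries lay above all siNT libraries. CREBBP, an acetyltransferase known as CBP, fell in MM134 (-0.29 ± 0.037 SE, adjusted p = 9.44e-07) and HCC1428 (-0.31 ± 0.042 SE, adjusted p = 4.75e-06) and was at 122 ± 2.43 CPM in siNT_E2 and 125 ± 5.55 CPM in siNT of MM330. EP300, its paralog p300, fell in HCC1428 only as far as calls go (-0.25 ± 0.035 SE, adjusted p = 6.32e-06). Its changes of -0.09 in MM134 (adjusted p = 0.0509) and -0.08 in MM330 (adjusted p = 0.125) were not called. All siNT_E2 libraries lay below all siNT libraries of EP300 in these lines too. The HCC1428 response was below those of MM134 (difference 0.19 ± 0.051 SE, adjusted p = 0.00416) and MM330 (0.16 ± 0.051 SE, adjusted p = 0.0125), and the second call was lost in 4 of 18 alternatives (adjusted p up to 0.37). MED1 rose in MM134 (0.14 ± 0.033 SE, adjusted p = 0.00144) and was not called in MM330 (0.05) or HCC1428 (-0.01). In MM330 all siNT_E2 libraries of MED1 nevertheless lay above all siNT libraries.

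Knockdown of the estrogen receptor was read from siER_E2 against siNT_E2, both with E2. NCOA2 and NCOA3 rose, and NRIP1 and CARM1 fell, in all 3 lines. That is 4 of 9 members, where 17.7% of all genes were called in the same direction in all 3 lines. Within lines 6 members were called in MM134 (3 higher, 3 lower), where 57.2 percent of genes were called (29.3 percent higher, 27.9 percent lower). Also in MM330 6 were called (3 higher, 3 lower), where 32.5 percent of genes were (15.1 percent higher, 17.4 percent lower). HCC1428 had 6 (4 higher, 2 lower), where 51.2 percent of genes were called (22.5 percent higher, 28.7 percent lower). On the log2 scale the median member differed by 0.086, 0.054 and 0.049 in MM134, MM330 and HCC1428, and the median gene tested by 0.043, 0.0028 and -0.0046. These comparisons share the siNT_E2 libraries with those of E2, so an opposite sign in the pair is not independent evidence, and siER_E2 is set against siNT further on.

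NRIP1 had 133, 130.3 and 127 CPM in siER_E2 of MM134, against 301, 290.3 and 285 CPM in siNT_E2 (-1.17 ± 0.031 SE, adjusted p = 3.21e-18). It had 43.3, 44.2 and 42.8 CPM in siER_E2 of MM330, against 124, 129 and 138 CPM in siNT_E2 (-1.58 ± 0.050 SE, adjusted p = 4.53e-13), and 94.7, 93.4 and 90.1 CPM in siER_E2 of HCC1428, against 130.4, 122 and 139.6 CPM in siNT_E2 (-0.50 ± 0.042 SE, adjusted p = 1.03e-08). No group overlapped. Its fall was larger in MM134 (-0.73 ± 0.068 SE, adjusted p = 2.39e-11) and MM330 (-1.12 ± 0.070 SE, adjusted p = 3.32e-16) than in HCC1428, where the siRNA also left more ESR1 transcript; the part of that remainder was not tested.

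NCOA2 had 151, 144 and 142 CPM in siER_E2 of MM134, against 89.7, 87.9 and 86.6 CPM in siNT_E2 (0.73 ± 0.038 SE, adjusted p = 3.85e-13). The gain was 0.28 ± 0.038 SE, adjusted p = 2.07e-05, in MM330 and 0.35 ± 0.037 SE, adjusted p = 2.25e-07, in HCC1428. NCOA3 had 179.9, 173 and 166 CPM in siER_E2 of MM134, against 115, 101 and 107 CPM in siNT_E2 (0.68 ± 0.044 SE, adjusted p = 1.09e-11), and rose by 0.37 ± 0.062 SE, adjusted p = 0.000197, in MM330 and 0.52 ± 0.057 SE, adjusted p = 2.99e-07, in HCC1428. The groups were apart for both genes in every line. NCOA1 was called in MM330 (0.26 ± 0.043 SE, adjusted p = 0.000143) and not in MM134 (0.17) or HCC1428 (0.05).

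CARM1 had 58.4, 52.7 and 50.1 CPM in siER_E2 of MM330, against 75.3, 79.5 and 77.7 CPM in siNT_E2 (-0.53 ± 0.065 SE, adjusted p = 7.54e-06). It fell by 0.26 in MM134 and 0.41 in HCC1428 on the log2 scale, with no overlap in any line. MED1 fell in MM134, to 108, 107 and 99.6 CPM in siER_E2, against 152, 156 and 149 CPM in siNT_E2 (-0.54 ± 0.034 SE, adjusted p = 6.6e-12). In MM330 it had 1792 ± 16.0 CPM in siER_E2 and 1924 ± 11.2 CPM in siNT_E2 (-0.10 ± 0.026 SE, adjusted p = 0.00535), a call lost without the filter on low counts and without the libraries rich in pseudogene counts (adjusted p up to 0.25). EP300 and CREBBP were called higher in HCC1428 (0.22 and 0.28) and not in the lobular lines, and the difference between lines was called for both genes. It was -0.22 and -0.25 for MM134, and -0.22 and -0.25 for MM330. NCOR1 was called in MM134 alone (0.28 ± 0.039 SE, adjusted p = 2.55e-06), by more than in HCC1428 (difference 0.31 ± 0.063 SE, adjusted p = 0.000174).

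**Figure D4:**
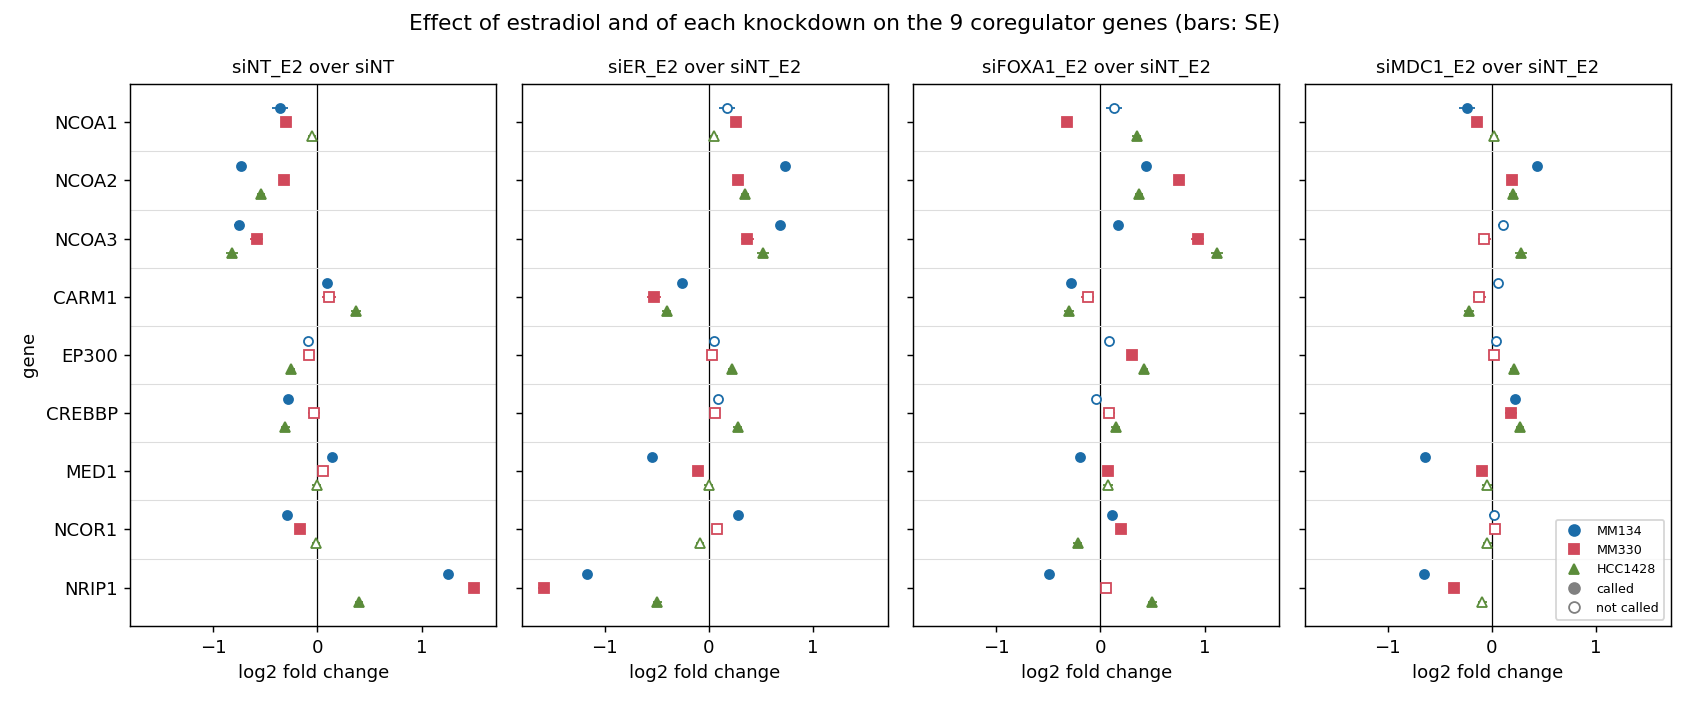
Log2 fold change of the 9 coregulator genes with E2 (siNT_E2 over siNT) and with each knockdown (over siNT_E2) in MM134, MM330 and HCC1428. Bars are SE, and filled points are called at an adjusted p below 0.05. NRIP1 lies between 0.40 and 1.503 with E2 and between -1.58 and -0.50 with siER_E2. The 4 panels share the siNT_E2 libraries.

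Cells with receptor knockdown were also set against cells that had no E2. In siER_E2 against siNT, 3 members were called in MM134, where 32.3 percent of all genes were, 2 in MM330, where 20.2 percent were, and 2 in HCC1428, where 21.2 percent were. These counts of 9 members lie near the shares of all genes and are no result about the members. All 7 calls were lower in siER_E2, as were 15.2, 11.5 and 9.5 percent of all genes in MM134, MM330 and HCC1428. NRIP1 was not called in any line, with 130.1 ± 3.26 CPM in siER_E2 and 123 ± 2.48 CPM in siNT of MM134 (0.08 ± 0.032 SE, adjusted p = 0.0554). In MM330 its difference was -0.08 ± 0.052 SE, adjusted p = 0.329, and in HCC1428 -0.10 ± 0.043 SE, adjusted p = 0.12. All siER_E2 libraries nevertheless lay above all siNT libraries in MM134 and below them in HCC1428, while the groups overlapped in MM330. In MM134 the called members were MED1 (-0.41 ± 0.034 SE, adjusted p = 3.97e-09), CREBBP (-0.20) and CARM1 (-0.16). They were CARM1 (-0.42 ± 0.065 SE, adjusted p = 0.000202) and NCOA3 (-0.21, lost in 4 of 12 alternatives with adjusted p up to 0.12) in MM330, and NCOA3 (-0.30 ± 0.056 SE, adjusted p = 0.000683) and NCOA2 (-0.20) in HCC1428.

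Knockdown of FOXA1, which opens chromatin at many receptor binding sites, was read from siFOXA1_E2 against siNT_E2. NCOA2 and NCOA3 rose in all 3 lines, and 4 members (NRIP1, NCOR1, NCOA1 and MED1) were called in opposite directions in different lines, as were 11.4% of all genes, that of MED1 resting on an MM330 call that several alternatives lost. In the same direction in all 3 lines were 25.1% of all genes. There were 6 members called in MM134 (3 higher, 3 lower), beside 56.3 percent of genes (27.9 percent higher, 28.5 percent lower). The 6 called in MM330 (5 higher, 1 lower) stood beside 49 percent of genes (24.4 percent higher, 24.6 percent lower), and the 8 in HCC1428 (6 higher, 2 lower) beside 53.6 percent (24.1 percent higher, 29.5 percent lower). Over the 9 members the median log2 difference was 0.083, 0.084 and 0.35 in MM134, MM330 and HCC1428, and over all genes tested it was 0.0096, -0.0096 and -0.032. ESR1 was also lower in siFOXA1_E2, with log2 fold changes of -2.29 ± 0.041 SE, adjusted p = 5.35e-21, in MM134, -0.45 in MM330 and -0.16 in HCC1428. Its part in the results of this knockdown was not tested.

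NRIP1 had 208, 209 and 206 CPM in siFOXA1_E2 of MM134, against 301, 290.3 and 285 CPM in siNT_E2 (-0.49 ± 0.030 SE, adjusted p = 4.45e-12). In MM330 it had 131, 135 and 140.4 CPM in siFOXA1_E2 and 124, 129 and 138 CPM in siNT_E2, which overlapped (0.06 ± 0.048 SE, adjusted p = 0.341). In HCC1428 it rose, to 187, 182 and 186 CPM in siFOXA1_E2, against 130.4, 122 and 139.6 CPM in siNT_E2 (0.50 ± 0.042 SE, adjusted p = 7.04e-09). The lines differed in this response, by -1.03 ± 0.067 SE, adjusted p = 4.53e-16, for MM134 minus HCC1428 and -0.47 ± 0.068 SE, adjusted p = 6.44e-07, for MM330 minus HCC1428. In those comparisons 30.5 and 22.2 percent of genes, and 7 and 5 members, were called. The other corepressor, NCOR1, fell in HCC1428 (-0.22 ± 0.040 SE, adjusted p = 0.00014) and rose in MM330 (0.19 ± 0.038 SE, adjusted p = 0.000377). In MM134 it was called at 0.11 ± 0.039 SE, adjusted p = 0.024, but not when replicate 3 of siFOXA1_E2 or replicate 2 or 3 of siNT_E2 was left out (adjusted p up to 0.13).

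NCOA3 had 127, 131 and 138 CPM in siFOXA1_E2 of HCC1428, against 58.6, 58.5 and 64.7 CPM in siNT_E2 (1.12 ± 0.057 SE, adjusted p = 5.21e-12). MM330 had 135, 157 and 154 CPM in siFOXA1_E2, against 82.6, 72.4 and 79.2 CPM in siNT_E2 (0.93 ± 0.062 SE, adjusted p = 2.77e-09). The rise was smaller in MM134 (0.17 ± 0.044 SE, adjusted p = 0.00217), with a difference of -0.99 ± 0.087 SE, adjusted p = 2.52e-12, from HCC1428 and -0.78 ± 0.086 SE, adjusted p = 1.44e-09, from MM330. NCOA2 rose by 0.44 ± 0.038 SE, adjusted p = 1.65e-09, in MM134, 0.75 ± 0.038 SE, adjusted p = 9.46e-11, in MM330 and 0.37 ± 0.037 SE, adjusted p = 1.03e-07, in HCC1428. NCOA1 rose in HCC1428 (138, 140.5 and 137 CPM in siFOXA1_E2, against 104, 114 and 109 CPM in siNT_E2) and fell in MM330 (57.5, 53.3 and 55.3 CPM in siFOXA1_E2, against 71.4, 66.0 and 70.2 CPM in siNT_E2). The difference of MM330 from HCC1428 was -0.70 ± 0.073 SE, adjusted p = 5.1e-10.

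EP300 rose with FOXA1 knockdown in MM330 (0.31 ± 0.038 SE, adjusted p = 3.32e-06) and HCC1428 (0.42 ± 0.035 SE, adjusted p = 7.24e-09) and was not called in MM134 (0.08). CARM1 fell in MM134 (-0.28 ± 0.030 SE, adjusted p = 3.87e-08) and HCC1428 (-0.30 ± 0.047 SE, adjusted p = 2.08e-05), and in MM330 it differed by -0.12 (adjusted p = 0.129). MED1 fell in MM134 (-0.20 ± 0.033 SE, adjusted p = 2.46e-05). Its rise in MM330 was slight (0.07 ± 0.026 SE, adjusted p = 0.0276) and was lost in 8 alternatives, among them leaving out the libraries rich in pseudogene counts, replicate 2 or 3 of siFOXA1_E2 or any replicate of siNT_E2, with adjusted p up to 0.58. CREBBP was called in HCC1428 (0.15 ± 0.042 SE, adjusted p = 0.00692), and that call was lost with the replicate number as a block (adjusted p = 0.064).

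Compared with siNT instead, siFOXA1_E2 cells had 7 members called in MM134 (56.8 percent of genes), 6 in MM330 (46.9 percent) and 7 in HCC1428 (48.5 percent). NRIP1 was higher than in siNT in all 3 lines, by 0.76 ± 0.031 SE, adjusted p = 3.94e-15, in MM134, 1.56 ± 0.050 SE, adjusted p = 2.84e-13, in MM330 and 0.90 ± 0.042 SE, adjusted p = 1.83e-12, in HCC1428. NCOA3 was lower than in siNT in MM134 (-0.58 ± 0.043 SE, adjusted p = 1.13e-10) and higher in MM330 (0.35 ± 0.061 SE, adjusted p = 0.000155) and HCC1428 (0.30 ± 0.055 SE, adjusted p = 0.000137).

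Knockdown of MDC1, best known for gathering repair proteins at DNA breaks and named in the study's title as a coregulator of the receptor, was read from siMDC1_E2 against siNT_E2. NCOA2 and CREBBP rose in all 3 lines, although several alternatives lost the CREBBP call in MM330. That is 2 of 9 members, where 8.56% of all genes were called in the same direction in all 3 lines. In each line 5 members were called. They were 2 higher and 3 lower in MM134, where 50.3 percent of genes were called (25.4 percent higher, 25 percent lower), and 2 higher and 3 lower in MM330, where 20.8 percent were (10.4 percent higher, 10.4 percent lower). In HCC1428 they were 4 higher and 1 lower, beside 29.1 percent of genes (13.2 percent higher, 15.9 percent lower). Leaving out single libraries took the MM330 count to between 2 and 4, with 3 called without replicate 3 of siMDC1_E2 or replicate 1 of siNT_E2 and 2 without replicate 3 of siNT_E2. The member medians were 0.036, -0.074 and 0.017 in MM134, MM330 and HCC1428, and those of all genes tested were -0.0004, 0.0016 and -0.011. ESR1 differed in siMDC1_E2 too, by -2.16 ± 0.041 SE, adjusted p = 2.03e-20, in MM134, -0.96 in MM330 and -0.12 in HCC1428, and its part in the results was not tested. In turn MDC1 was lower in siER_E2 (-0.63, -0.98 and -1.17 in MM134, MM330 and HCC1428) and in siFOXA1_E2 (-0.35, -0.71 and -0.90) than in siNT_E2. With E2 alone MDC1 rose in MM330 (0.50) and in HCC1428, where it had 168 ± 11.3 CPM in siNT_E2 and 63.9 ± 3.27 CPM in siNT (1.39), and was not called in MM134 (0.0035). Mean levels of ESR1 and FOXA1 were not constant either. In MM134 mean ESR1 was 344 CPM in siNT and 573 CPM in siNT_E2. It was 289 and 275 CPM in MM330, and 555 and 413 CPM in HCC1428. Mean FOXA1 was 533, 658 and 457 CPM in siNT of MM134, MM330 and HCC1428. It was 471, 486 and 271 CPM in siNT_E2, and 582, 553 and 419 CPM in siER_E2. The part of the levels of ESR1, FOXA1 and MDC1 in the other comparisons was not tested.

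NRIP1 had 188, 188 and 181 CPM in siMDC1_E2 of MM134, against 301, 290.3 and 285 CPM in siNT_E2 (-0.65 ± 0.030 SE, adjusted p = 5.64e-14). In MM330 it had 98.7, 105 and 99.9 CPM in siMDC1_E2, against 124, 129 and 138 CPM in siNT_E2 (-0.36 ± 0.048 SE, adjusted p = 3.82e-05), and in HCC1428 125, 121 and 122 CPM in siMDC1_E2, against 130.4, 122 and 139.6 CPM in siNT_E2 (-0.09 ± 0.042 SE, adjusted p = 0.11). The groups were apart in both lobular lines and overlapped in HCC1428. The difference from HCC1428 was -0.56 ± 0.067 SE, adjusted p = 2.16e-08, for MM134 and -0.27 ± 0.068 SE, adjusted p = 0.00404, for MM330, where 18.6 and 13.8 percent of genes, and 6 and 3 members, were called.

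MED1 fell in MM134, to 99.1, 98.0 and 96.3 CPM in siMDC1_E2, against 152, 156 and 149 CPM in siNT_E2 (-0.64 ± 0.034 SE, adjusted p = 5.47e-13). In MM330 its difference was -0.10 ± 0.026 SE, adjusted p = 0.0116, a call lost without replicate 3 of siNT_E2, without the filter on low counts or without the libraries rich in pseudogene counts (adjusted p up to 0.42). It was not called in HCC1428 (-0.05 ± 0.045 SE, adjusted p = 0.473). The difference of MM134 from HCC1428 was -0.59 ± 0.060 SE, adjusted p = 3.43e-10. NCOA2 rose by 0.43 ± 0.039 SE, adjusted p = 3.71e-09, in MM134, 0.19 ± 0.038 SE, adjusted p = 0.00149, in MM330 and 0.20 ± 0.037 SE, adjusted p = 0.000367, in HCC1428. CREBBP rose by 0.22 ± 0.037 SE, adjusted p = 3.08e-05, in MM134, 0.18 ± 0.057 SE, adjusted p = 0.031, in MM330 and 0.27 ± 0.042 SE, adjusted p = 8.06e-05, in HCC1428, and the MM330 call was lost without replicate 1 or 3 of siMDC1_E2, any replicate of siNT_E2 or the libraries rich in pseudogene counts (adjusted p up to 0.13). NCOA1 fell in MM134 (-0.24 ± 0.077 SE, adjusted p = 0.0132) and MM330 (-0.14 ± 0.044 SE, adjusted p = 0.0278). The MM134 call was lost without replicate 3 of siMDC1_E2 or replicate 2 of siNT_E2, and the MM330 call without replicate 2 or 3 of siMDC1_E2 or replicate 1 or 3 of siNT_E2, the libraries rich in pseudogene counts or the filter on low counts (adjusted p up to 0.15 and 0.24). NCOA3 (0.28 ± 0.058 SE, adjusted p = 0.000992), EP300 (0.21) and CARM1 (-0.22) were called in HCC1428 alone, although NCOA3 was also called in MM134 under 6 of 13 alternatives. NCOR1 was called in no line.

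Against siNT, siMDC1_E2 cells had 7 members called in MM134 (49.1 percent of genes), 6 in MM330 (34.9 percent) and 4 in HCC1428 (48.4 percent). NRIP1 was above siNT in all 3 lines (0.60, 1.14 and 0.31 in MM134, MM330 and HCC1428), and NCOA3 was below it in all 3 (-0.65, -0.65 and -0.54).

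The knockdowns were also set against each other, which uses no siNT_E2 library. In siFOXA1_E2 against siER_E2, 6 members were called in MM134 (51.3 percent of genes), 8 in MM330 (45.9 percent) and 6 in HCC1428 (42.9 percent). NRIP1 was higher in siFOXA1_E2 in all 3 lines, by 0.68 ± 0.031 SE, adjusted p = 3.3e-14, in MM134, 1.64 ± 0.051 SE, adjusted p = 1.38e-13, in MM330 and 0.996 ± 0.042 SE, adjusted p = 5.22e-13, in HCC1428. NCOA3 was lower in siFOXA1_E2 in MM134 (-0.51 ± 0.043 SE, adjusted p = 1.25e-09) and higher in MM330 (0.56 ± 0.062 SE, adjusted p = 1e-06) and HCC1428 (0.60 ± 0.055 SE, adjusted p = 4.1e-08). NCOA1 was lower in siFOXA1_E2 in MM330 (-0.59 ± 0.044 SE, adjusted p = 9.93e-09).

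In siMDC1_E2 against siER_E2, 8 members were called in MM134 (45.6 percent of genes), 4 in MM330 (30.6 percent) and 4 in HCC1428 (41.1 percent). NRIP1 was higher in siMDC1_E2 in all 3 lines (0.51, 1.22 and 0.40), and NCOA3 was lower in all 3 (-0.58, -0.44 and -0.24). CARM1 was higher in siMDC1_E2 in all 3 lines (0.32, 0.41 and 0.19), with the HCC1428 call lost without the libraries rich in pseudogene counts (adjusted p = 0.19). In siMDC1_E2 against siFOXA1_E2, 5 members were called in MM134 (49.8 percent of genes), 7 in MM330 (48.8 percent) and 8 in HCC1428 (45.4 percent). NCOA3 was lower in siMDC1_E2 in MM330 (-1.01 ± 0.063 SE, adjusted p = 1.09e-09) and HCC1428 (-0.84 ± 0.056 SE, adjusted p = 4.08e-10) and was not called in MM134 (-0.07). These comparisons share libraries of each knockdown with one another. How many of all genes were called in the same direction in all 3 lines was not counted for them. Nor was it counted for siFOXA1_E2 or siMDC1_E2 against siNT. In those comparisons, the same direction in all 3 lines is therefore no result about the members.

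Over the 15 groups, each member's pattern was described by the Pearson correlation of log2 group means centred on the mean of the line, without a test, since groups of a line share their centring. Among members the closest pair was NCOA2 and NCOA3 (0.85), followed by NCOA3 and EP300 (0.82). The most opposed pair was NCOR1 and NRIP1 (-0.58). Of 9996 genes with a mean of at least 10 CPM, DEPTOR (0.97) and C5AR2 (0.96) were most like NRIP1, DCAF5 (0.97) and WDR60 (0.96) most like NCOA3, and TRERF1 and BLNK (both 0.95) most like NCOA2. The nearest to EP300 were AC018647.2 (0.96) and RREB1 (0.95), those to CARM1 TUBA1A (0.92) and CUEDC2 (0.91), and those to NCOR1 PACSIN1 (0.91) and TMLHE (0.86). For MED1 they were OTUD3 (0.89) and NDUFA10 (0.88), for CREBBP TRIB1 (0.89) and HERPUD2 (0.87), and for NCOA1 TMCC3 (0.87) and OSBPL1A (0.86).

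**Figure D5:**
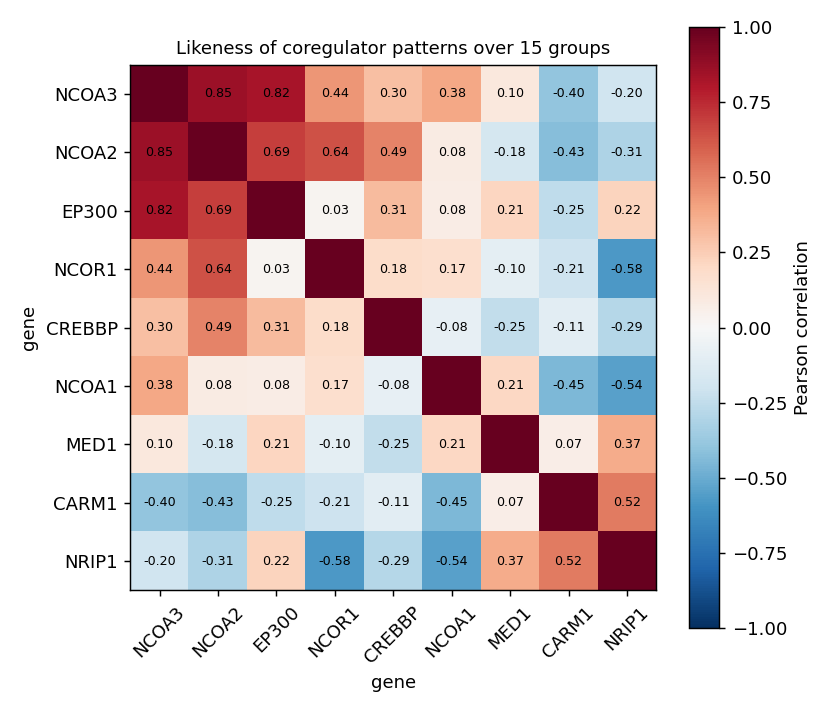
Pearson correlation of centred log2 group means over 15 groups for each pair of the 9 coregulator genes. NCOA3, NCOA2 and EP300 lie together at 0.69 to 0.85, and NCOR1 and NRIP1 stand opposed at -0.58.

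Other coregulators of the receptor were counted from lists of 30 coactivators (29 measured) and 17 corepressors (16 measured). With E2, 10 coactivators were called higher and 12 lower in MM134, 5 and 5 in MM330, and 15 and 10 in HCC1428. Of the corepressors, 7 were called higher and 2 lower in MM134, 3 and 2 in MM330, and 9 and 5 in HCC1428. The coactivator medians were 0.0062, -0.025 and 0.13 in MM134, MM330 and HCC1428, the corepressor medians 0.043, 0.016 and 0.18, and the medians of all genes tested -0.031, -0.0044 and -0.026. Of all genes 54.4, 26.3 and 54.8 percent were called in these comparisons, in either direction, and the list counts are to be read against those shares. GREB1, an estrogen-induced cofactor of the receptor, rose with E2 in all 3 lines (log2 fold changes 3.67, 2.21 and 2.59 in MM134, MM330 and HCC1428), and so did RERG, an estrogen-regulated growth inhibitor (2.86, 1.77 and 0.49). RERG was put in the corepressor list, and so is part of all corepressor counts and medians given here, although it is not an established corepressor of the receptor. CCND1, a cyclin that also binds the receptor, rose in MM134 (1.05) and HCC1428 (0.87), and the coactivator CALCOCO1 fell in both (-1.26 and -1.39). Others among the 3 smallest p-values of a list were the coactivators PNRC1 (-0.60) and RBM39 (-0.16) and the corepressor SIN3A (0.26) in MM330, the corepressors CTBP1 (0.43) and PHB2 (0.37) in HCC1428, and TBL1XR1 (-0.51), a subunit of the NCOR1 complex, in MM134.

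With receptor knockdown, 10 coactivators were called higher and 12 lower in MM134, 7 and 9 in MM330, and 9 and 15 in HCC1428. For corepressors the counts were 4 higher and 8 lower in MM134, 4 and 5 in MM330, and 2 and 10 in HCC1428. The coactivator medians were then -0.037, -0.051 and -0.13, the corepressor medians -0.15, 0.0091 and -0.16, and the medians of all genes tested 0.043, 0.0028 and -0.0046. The background here was 57.2, 32.5 and 51.2 percent of all genes called. GREB1 fell in all 3 lines (-3.15, -2.33 and -2.13), as did RERG (-2.60, -1.91 and -1.20). TLE1, a Groucho family corepressor, fell in MM134 (-0.75) and MM330 (-0.82). CTBP1 fell in HCC1428 (-0.42). TBL1XR1 rose in MM134 (0.87) and HCC1428 (0.52), where more corepressors were called lower than higher. Among coactivators, CALCOCO1 rose in MM134 (1.62) and HCC1428 (1.45) and CCND1 fell in both (-0.83 and -1.36), while in MM330 MED24 fell (-0.58) and NCOA4 rose (0.58).

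Some members share exon bases with a neighboring gene, so that counts may be split between them. The sources used here do not give the strand setting of the counting, which bears on neighbors on the opposite strand. The widest such stretch was 886 bases of CARM1 shared with YIPF2 on the opposite strand, 19.9% of the exon bases of CARM1. NCOR1 shared 321 bases with PIGL and NCOA3 96 with SULF2, both on the opposite strand, and NRIP1 shared 87 with AF127577.4 on its own strand. The values of CARM1, NCOR1, NCOA3 and NRIP1 are uncertain to that extent.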

How the data were processed

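The authors deposited 1 table of raw counts from polyadenylated RNA, with 57353 gene symbols and 45 libraries. Per the submitters' processing notes, reads were aligned to GRCh38 with STAR 2.6.0a and limma was used. The counting tool, its annotation and its strand setting are not given in the sources used here. Of the symbols, 16974 had no count, and 27 had been turned into dates (0.195% of counts). Library totals were 21043426 to 36738812 counts, and amplification copies cannot be told from molecules. No pair of replicates agreed within sampling noise (chi-square per degree of freedom at least 1.93 in 45 pairs).

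Groups came from the labels. Tests used edgeR 4.0.16 under R 4.3.3 (filterByExpr, TMM, glmQLFit and glmQLFTest), with Benjamini-Hochberg adjustment over all genes of a comparison and calls at an adjusted p below 0.05. One fit per line, of its 15 libraries, gave 10 comparisons a line, and a fit of all 45 gave 12 line differences and 3 level comparisons. Levels are CPM on totals scaled within a line, or RPKM over GENCODE 29 exons on totals scaled over all libraries. Fold changes are log2, with the first named group over the second. Their SE was derived from the test, as the absolute log2 fold change divided by the square root of the quasi-likelihood F. The pipeline was tested on simulated data.

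Members and lists were chosen with earlier results of these data known. The genes named are the members, ESR1, FOXA1 and MDC1, the 2 genes most like each member, and up to 3 called genes of each coregulator list by p with E2 and with receptor knockdown, of which 1 is not reported here. ERBB2 and other neighbors of MED1 were added after their values were seen. The alternatives were RLE scaling, no filter, a replicate block, DESeq2 1.42.0, limma-voom (limma 3.58.1), the compared libraries only, leaving out the libraries with more pseudogene counts, and leaving out each library. Promoter sequences came from RefSeq (GRCh38.p14), and that of NCOA2 is not reported here.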

Additional observations from a re-analysis of the deposited data

Results flagged for a closer look

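The response of every member to at least 1 treatment differed between lines, by an interaction test over all genes in the fit of 45 libraries (edgeR quasi-likelihood, Benjamini-Hochberg). In all, 62 of 108 such differences passed at an adjusted p below 0.05, and they are given here on the log2 scale, with the first line minus the second. The E2 response is siNT_E2 over siNT and the knockdown responses are siER_E2, siFOXA1_E2 and siMDC1_E2 over siNT_E2, so the responses of a line share its siNT_E2 libraries. In these comparisons between 13.8 and 30.5 percent of all genes were called. How many of all genes differed in at least 1 of the 12 comparisons was not counted. That every member did is therefore no result about the members. No explanation of these differences was tested.

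NRIP1 differed by 0.88 for E2, -0.73 for receptor knockdown, -1.03 for FOXA1 knockdown and -0.56 for MDC1 knockdown in MM134 minus HCC1428. The difference was 1.1 for E2, -1.12 for receptor knockdown, -0.47 for FOXA1 knockdown and -0.27 for MDC1 knockdown in MM330 minus HCC1428. Another was -0.23 for E2, 0.39 for receptor knockdown, -0.56 for FOXA1 knockdown and -0.28 for MDC1 knockdown in MM134 minus MM330. NCOR1 differed by -0.25 for E2, 0.31 for receptor knockdown and 0.28 for FOXA1 knockdown in MM134 minus HCC1428. It differed by 0.38 for FOXA1 knockdown in MM330 minus HCC1428. The difference was 0.17 for receptor knockdown in MM134 minus MM330.

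NCOA1 differed by -0.28 for E2, -0.26 for FOXA1 knockdown and -0.25 for MDC1 knockdown in MM134 minus HCC1428. Another was -0.25 for E2 and -0.7 for FOXA1 knockdown in MM330 minus HCC1428. It differed by 0.44 for FOXA1 knockdown in MM134 minus MM330. NCOA2 differed by -0.16 for E2, 0.32 for receptor knockdown and 0.23 for MDC1 knockdown in MM134 minus HCC1428. The difference was 0.22 for E2 and 0.35 for FOXA1 knockdown in MM330 minus HCC1428. Another was -0.39 for E2, 0.42 for receptor knockdown, -0.33 for FOXA1 knockdown and 0.25 for MDC1 knockdown in MM134 minus MM330. NCOA3 differed by -0.99 for FOXA1 knockdown in MM134 minus HCC1428. It differed by 0.24 for E2 and -0.36 for MDC1 knockdown in MM330 minus HCC1428. The difference was 0.29 for receptor knockdown and -0.78 for FOXA1 knockdown in MM134 minus MM330.

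CARM1 differed by -0.25 for E2 and 0.28 for MDC1 knockdown in MM134 minus HCC1428. Another was -0.26 for E2 in MM330 minus HCC1428. It differed by 0.24 for receptor knockdown in MM134 minus MM330. EP300 differed by 0.19 for E2, -0.22 for receptor knockdown, -0.38 for FOXA1 knockdown and -0.17 for MDC1 knockdown in MM134 minus HCC1428. The difference was 0.16 for E2, -0.22 for receptor knockdown, -0.15 for FOXA1 knockdown and -0.19 for MDC1 knockdown in MM330 minus HCC1428. Another was -0.23 for FOXA1 knockdown in MM134 minus MM330. CREBBP differed by -0.25 for receptor knockdown and -0.23 for FOXA1 knockdown in MM134 minus HCC1428. It differed by 0.28 for E2 and -0.25 for receptor knockdown in MM330 minus HCC1428. The difference was -0.23 for E2 in MM134 minus MM330. MED1 differed by 0.17 for E2, -0.59 for receptor knockdown, -0.31 for FOXA1 knockdown and -0.59 for MDC1 knockdown in MM134 minus HCC1428. Another was -0.47 for receptor knockdown, -0.28 for FOXA1 knockdown and -0.53 for MDC1 knockdown in MM134 minus MM330.

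Of these differences, 9 lost their call in at least 4 alternatives. They were NCOR1 with receptor knockdown between MM134 and MM330 (12 of 18, adjusted p up to 0.16), NCOA1 with MDC1 knockdown between MM134 and HCC1428 (4 of 18, adjusted p up to 0.15), NCOA2 with E2 between MM134 and HCC1428 (10 of 18, adjusted p up to 0.52), NCOA3 with E2 between MM330 and HCC1428 (12 of 18, adjusted p up to 0.17), CARM1 with receptor knockdown between MM134 and MM330 (4 of 18, adjusted p up to 0.11), EP300 with MDC1 knockdown between MM134 and HCC1428 (4 of 18, adjusted p up to 0.09), EP300 with E2 between MM330 and HCC1428 (4 of 18, adjusted p up to 0.37), EP300 with FOXA1 knockdown between MM330 and HCC1428 (8 of 18, adjusted p up to 0.14) and MED1 with E2 between MM134 and HCC1428 (6 of 18, adjusted p up to 0.33).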

How the results depend on the processing

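No called member value changed sign in any alternative. Of 405 member values, 316 kept their side of the threshold under every alternative, 53 lost a call in at least 1 and 36 gained one. Calls were lost and gained for 32 and 8 values when the 11 libraries with more pseudogene counts were left out, 25 and 7 without the filter on low counts, 6 and 7 with the replicate block, 1 and 13 with DESeq2, 2 and 3 with limma-voom and 1 and 6 with RLE scaling. With only the compared libraries in the fit, which was run for 108 values, 1 call was lost and 7 were gained. Over the fits that each left out 1 library, 105 of 3078 values lost a call and 29 gained one. Values that were not called either way moved by more than their SE in 16 cases without the pseudogene-rich libraries, 3 with only the compared libraries, 1 with the replicate block and 27 without single libraries. RLE scaling moved the median of all genes by at most 0.0372 (log2). Leaving out the pseudogene-rich libraries keeps 1 library each of siNT and siER_E2 in HCC1428, which are assumed to vary like the other groups.

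Most counts of called members stayed within 1.5 times, with these exceptions. For siMDC1_E2 against siNT_E2 in MM330, the count of 5 was 2 without the pseudogene-rich libraries, 3 without the filter and between 2 and 4 without single libraries. For the E2 response, the count of 7 for MM134 minus HCC1428 was 4 in both of those alternatives, and so was the count of 7 for MM330 minus HCC1428. For MM330 minus HCC1428, the receptor knockdown count of 3 was 6 with DESeq2 and 5 with RLE scaling, and the MDC1 knockdown count of 3 was 1 without the pseudogene-rich libraries. For MM134 minus MM330, the E2 count of 3 was between 1 and 3 without single libraries, with 1 without replicate 1 of siNT in MM134. The cause was not tested.

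No comparison met the rule set for pairing, at least 3 shared replicate numbers whose deviations all correlated above 0.1. Of 32 same-numbered pairs of libraries, 5 had deviations that correlated above 0.1 (range -0.32 to 0.34), and 14 correlated best with their own number. The siNT_E2 libraries of HCC1428 were numbered 2, 3 and 4, so its comparisons shared 2 numbers and could not meet the rule. For siNT_E2 against siNT of HCC1428 both shared numbers correlated above 0.1 (0.14 and 0.23), and pairing in that line was not settled. With the replicate block no count of called members moved by over 1.5 times. With the longest transcript as length 131 of 135 RPKM values moved by more than the spread between libraries, and with RLE scaling 17 did.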

Other observations

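Counts of the other coregulators are given here for the knockdowns not described above, against siNT_E2. With FOXA1 knockdown, 9 coactivators of 29 were called higher and 14 lower in MM134, 10 and 9 in MM330, and 11 and 12 in HCC1428. Of 16 corepressors, 3 were called higher and 9 lower in MM134, 5 and 6 in MM330, and 2 and 10 in HCC1428. In those comparisons 56.3, 49 and 53.6 percent of all genes were called in MM134, MM330 and HCC1428. With MDC1 knockdown, 9 coactivators were called higher and 13 lower in MM134, 5 and 6 in MM330, and 6 and 8 in HCC1428. The corepressor counts were 4 higher and 5 lower in MM134, 6 and 3 in MM330, and 5 and 2 in HCC1428, where 50.3, 20.8 and 29.1 percent of all genes were called in the 3 lines. No list count is read as particular to the list. With FOXA1 knockdown the coactivator medians were -0.10, -0.055 and -0.0084 on the log2 scale in MM134, MM330 and HCC1428, the corepressor medians -0.11, -0.073 and -0.17, and the medians of all genes tested 0.0096, -0.0096 and -0.032. With MDC1 knockdown they were -0.032, -0.0049 and -0.013 for coactivators, -0.018, 0.081 and -0.042 for corepressors and -0.0004, 0.0016 and -0.011 for all genes tested.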
